A study of Mus musculus with 12 samples.

Results

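Transcript levels of 10 genes that encode CTCF, the cohesin ring and the proteins that load and release it were followed over 12 Affymetrix gene arrays of mouse spleen lymphocytes. The members are Ctcf, Rad21, Smc1a, Smc3, Stag1, Stag2, Nipbl, Mau2, Pds5a and Pds5b. They were chosen by name from what their proteins are known to do, with earlier results of these data known. They make up 10 of the 19937 genes that the arrays measured with a probe set of 1 gene symbol. Each member had 1 such probe set. All samples came from C57Bl/6 x FVB mice. The 4 groups, with 3 arrays each, are activated B (B cells kept for 4 days with αCD40 and IL-4), resting B (splenic cells depleted of CD43-positive cells, day 0), activated T (T cells kept for 4 days with αCD3, αCD28 and IL-2) and resting T (splenic cells without B220, day 0). The cells were taken by magnetic sorting, so that each array holds a bulk population. The labels do not tell whether the arrays of a group come from separate mice. Xist, the RNA of the inactive X chromosome, was high in some arrays of every group and low in the others (values below). No group therefore came from a single mouse, but whether each array had its own mouse is not known. P-values therefore measure the spread between arrays.

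Cohesin is a ring-shaped complex that holds DNA. SMC1A and SMC3 are long ATPases joined at one end, the kleisin RAD21 closes the ring, and STAG1 or STAG2, of which a ring carries one, binds RAD21. NIPBL and MAU2 form the loader that brings cohesin onto chromatin and drives the extrusion of loops, PDS5A and PDS5B bind the ring and take part both in its release and in its maintenance, and the zinc finger protein CTCF stops extruding cohesin at its binding sites. The same complex holds sister chromatids together in dividing cells, and CTCF and cohesin are known for the loops of antigen receptor loci in lymphocytes, such as the IgH locus.

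The lineage genes ran against the labels, and this touches every comparison below. The mean level of 7 T cell markers lay between 10.09 and 10.27 log2 in the activated B arrays and between 10.32 and 10.46 in the resting B arrays, but between 5.59 and 6.55 in the activated T arrays and between 5.56 and 6.10 in the resting T arrays. For 7 B cell markers the ranges were 4.95 to 5.43 in activated B, 7.37 to 8.67 in resting B, 11.33 to 11.52 in activated T and 9.75 to 10.15 in resting T. Mki67, a marker of dividing cells, had group means of 10.58 log2 in activated B and 6.56 in resting B, and of 6.31 in activated T and 10.18 in resting T. In the groups labelled T, this marker of division thus ran against the labels of state as well. The mean of 6 myeloid markers lay between 4.76 and 4.84 log2 in activated B, against 7.21 to 7.81 in resting B, and between 6.86 and 7.30 in activated T, against 6.18 to 6.40 in resting T. For 3 natural killer markers the ranges were 4.55 to 4.95 in activated B, 6.84 to 7.81 in resting B, 5.20 to 6.54 in activated T and 4.27 to 4.81 in resting T. Their part in the results was not tested. In what follows a group name stands for the label of the arrays, and directions are those between labels. Since all 4 groups are affected, no comparison could be made without them, and all 6 pairs of groups are therefore given.

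The deposited values are on the log2 scale and were summarised with RMA, which subtracts background, brings all arrays to a shared distribution of probe values and merges the probes of each set. A difference of 1 log2 is a doubling, and levels of different genes are not set against each other, because probes differ in brightness. As a level of background, 5.21 log2 was used, below which 95% of 1027 olfactory receptor genes lay, and all 10 members lay above it in every array. Groups were compared with limma over all 19937 genes, a gene was called at an adjusted p under 0.05 (Benjamini-Hochberg), and errors of a difference are standard errors from that fit.

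Promoter windows of 7 of the 10 members were found in RefSeq (build GRCm38.p6), each covering 250 bases before to 50 bases after a transcription start. Of these, 4 are printed because their genes behaved differently below. Smc1a and Smc3 were higher in activated than in resting B and lower in activated than in resting T. Mau2 had the other signs, and Stag1 was called in neither comparison. They lie at chrX:152016178-152016477 on the plus strand, chr19:53600146-53600445 on the plus strand, chr8:70042685-70042984 on the minus strand and chr9:100643198-100643497 on the plus strand. Capitals mark a word of the cell cycle factor E2F, for which TTTCCCGC, TTTGGCGC, TTTGCCGC and TTTCGCGC were searched on both strands.
Smc1a: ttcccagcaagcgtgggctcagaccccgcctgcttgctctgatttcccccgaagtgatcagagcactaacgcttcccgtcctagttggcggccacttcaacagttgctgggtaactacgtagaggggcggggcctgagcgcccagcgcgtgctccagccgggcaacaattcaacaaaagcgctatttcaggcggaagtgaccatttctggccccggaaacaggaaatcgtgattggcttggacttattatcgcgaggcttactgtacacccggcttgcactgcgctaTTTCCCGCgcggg
Smc3: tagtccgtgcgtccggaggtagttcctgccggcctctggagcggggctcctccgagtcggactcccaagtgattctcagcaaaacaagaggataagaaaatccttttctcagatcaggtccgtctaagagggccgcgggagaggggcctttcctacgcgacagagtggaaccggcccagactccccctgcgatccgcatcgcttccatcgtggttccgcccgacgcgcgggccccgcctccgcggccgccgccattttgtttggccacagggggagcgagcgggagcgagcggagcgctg
Mau2: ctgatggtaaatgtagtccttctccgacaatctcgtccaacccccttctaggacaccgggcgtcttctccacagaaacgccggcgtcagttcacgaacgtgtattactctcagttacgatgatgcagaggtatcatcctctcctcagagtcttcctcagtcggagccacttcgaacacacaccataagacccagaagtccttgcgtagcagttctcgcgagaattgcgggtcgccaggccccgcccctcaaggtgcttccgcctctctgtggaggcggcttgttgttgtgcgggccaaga
Stag1: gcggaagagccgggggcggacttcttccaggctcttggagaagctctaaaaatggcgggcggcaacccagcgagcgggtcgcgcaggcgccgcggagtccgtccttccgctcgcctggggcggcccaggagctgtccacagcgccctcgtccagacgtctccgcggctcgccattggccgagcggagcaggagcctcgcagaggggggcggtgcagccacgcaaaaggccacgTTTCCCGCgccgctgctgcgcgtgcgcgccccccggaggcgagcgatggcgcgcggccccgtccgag
The windows of Smc1a, Stag1 and Pds5a each held 1 E2F word, where 2.26% of 32851 RefSeq promoter windows of the same length hold one. Its first base lies at 37 relative to the start in Smc1a, at -17 in Stag1 and at -106 in Pds5a. None of the windows of Smc3, Mau2 (a second start included), Pds5b and Ctcf held these letters. The words for NRF1, ETS factors (CCGGAAGT) and YY1 (AAGATGGC), searched in the same way, were in none of the member windows, and are in 0.971%, 3.89% and 2.75% of all windows. The SP1 word GGGCGG was in the first window of each of the 7 genes, against 35.7% of all windows, with 4 matches in Stag1 and 3 in Pds5b. The CCAAT word of NFY was in Smc1a, Stag1 and Pds5b, against 37.4% of all windows. A match of letters is a description of the window only.

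**Figure D1:**
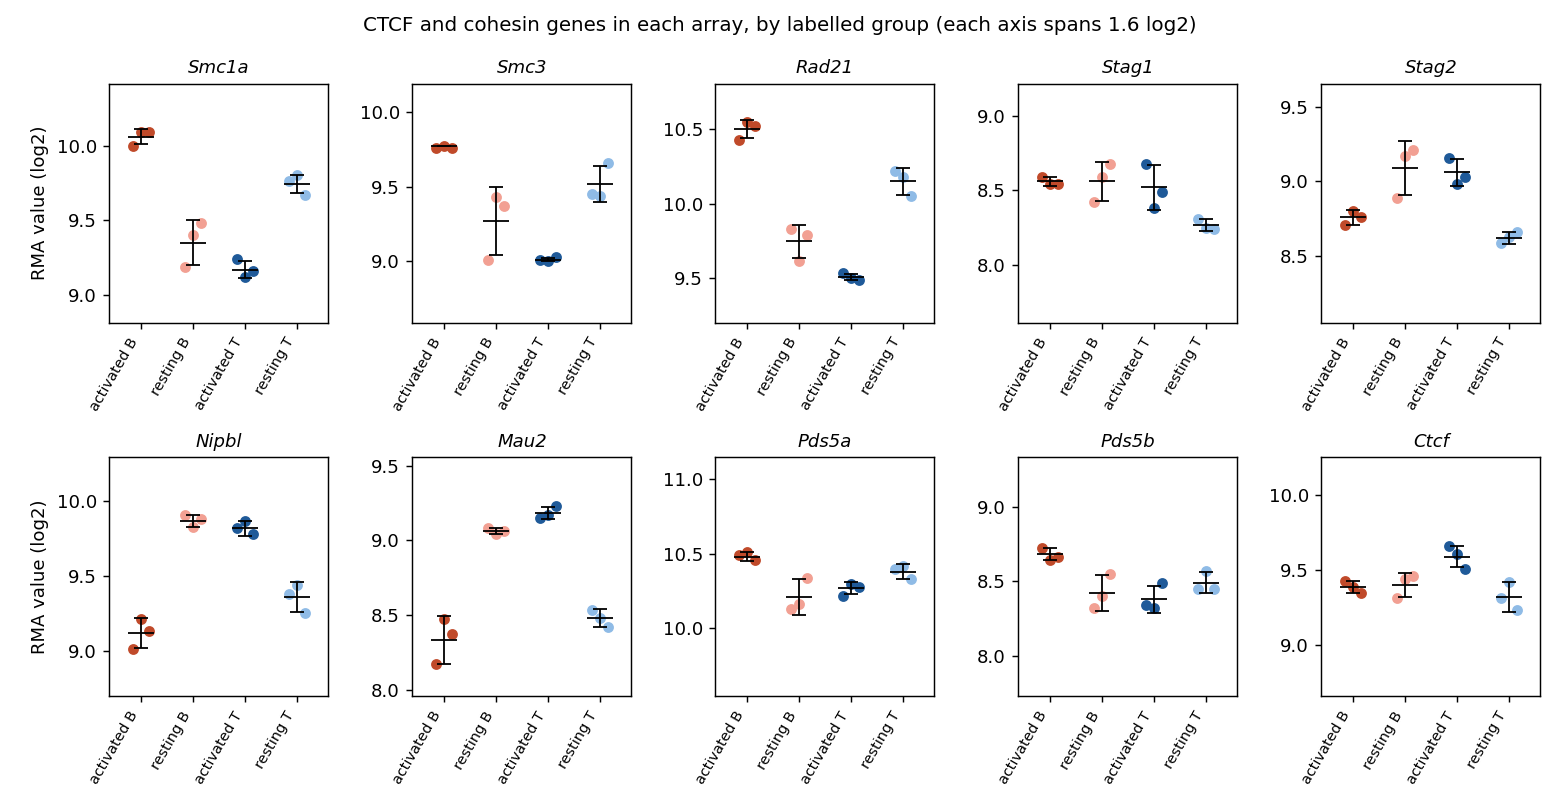
RMA values (log2, y axis) of the 10 genes in the arrays of each labelled group (x axis). Points are the 3 arrays of a group, and the black line and bar are their mean and SD. Smc1a, Smc3 and Rad21 are highest in activated B, with resting T next, while Nipbl and Mau2 are lowest in these groups.

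The first question was how the genes differed between activated and resting B. The kleisin and both SMC subunits of the ring were higher in activated B, both loader genes were lower, and Ctcf and Stag1 were not called. In all, 5 members were called higher and 3 lower, where 19.7% of all genes were called higher and 16.7% lower (36.5% in either direction). All genes include those with means under the background, while the members all lay above it. A fit of only the 12170 genes with a mean above background called 3800 of them higher and 3146 lower. Without overlap between the groups were 8 members, as were 46.6% of all genes. Bulk values cannot tell fewer cells of a type from less RNA per cell. The median log2 difference of the 10 members was 0.13, against -0.02 over all genes, and their median size without the sign was 0.41, against 0.19.

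Rad21, the kleisin that closes the ring, had values of 10.43, 10.55 and 10.52 log2 in activated B, against 9.83, 9.62 and 9.79 in resting B. The lowest activated B array was above the highest resting B array. The log2 difference was 0.75 ± 0.09 (adjusted p = 3.5e-06, limma), a fold of 1.68.

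Smc1a, an ATPase of the ring, had 10, 10.09 and 10.09 log2 in activated B, against 9.19, 9.40 and 9.48 in resting B. The groups did not overlap, and replicate 1 was the lowest of the resting B arrays. The log2 difference was 0.70 ± 0.09 (adjusted p = 1.1e-05, limma), a fold of 1.63. Smc3, its partner ATPase, had 9.76, 9.77 and 9.76 log2 in activated B, against 9.01, 9.43 and 9.37 in resting B. Here too the groups did not overlap and replicate 1 of resting B was the lowest. The log2 difference was 0.50 ± 0.11 (adjusted p = 0.00134, limma).

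Nipbl, the large subunit of the loader, had 9.01, 9.21 and 9.13 log2 in activated B, against 9.91, 9.83 and 9.88 in resting B. All activated B arrays were below all resting B arrays. The log2 difference was -0.75 ± 0.09 (adjusted p = 3.2e-06, limma), which is as large as that of Rad21 with the other sign. Mau2, its partner in the loader, had 8.17, 8.47 and 8.37 log2 in activated B, against 9.08, 9.04 and 9.06 in resting B. The spread was wider in activated B, where replicate 1 was lowest, but the groups did not overlap. The log2 difference was -0.73 ± 0.09 (adjusted p = 6.1e-06, limma).

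The 2 STAG genes, alternative subunits of the ring, did not have the same calls. Stag2 had 8.71, 8.80 and 8.76 log2 in activated B, against 8.89, 9.17 and 9.21 in resting B, a log2 difference of -0.33 ± 0.10 (adjusted p = 0.0124, limma). It was lower without overlap, but lost its call without resting B replicate 2 (-0.29, adjusted p = 0.0564) or replicate 3 (-0.27, adjusted p = 0.0658). Stag1 had 8.59, 8.54 and 8.54 log2 in activated B, inside the range of 8.42, 8.59 and 8.68 in resting B. Its adjusted p was 0.991, and the 95% interval of its log2 difference ran from -0.21 to 0.21. Whether the differences of Stag1 and Stag2 were unequal was not tested.

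Pds5a had 10.49, 10.51 and 10.46 log2 in activated B, against 10.13, 10.16 and 10.34 in resting B, and Pds5b had 8.72, 8.64 and 8.66, against 8.32, 8.40 and 8.55. Both PDS5 genes were higher in activated B without overlap, by 0.27 ± 0.09 (adjusted p = 0.0191, limma) and 0.25 ± 0.09 (adjusted p = 0.04, limma). These small differences depended on single arrays and on the scaling. Pds5a lost its call without resting B replicate 1 (adjusted p = 0.0707) or 2 (adjusted p = 0.0724) or activated B replicate 2 (adjusted p = 0.0594), and Pds5b without either of these resting B arrays (0.144 and 0.104) or any activated B array (0.115, 0.0677 and 0.0838). Pds5b had an adjusted p of 0.0762 with the replicate number as a block and of 0.0556 with only the arrays of these groups, and centring each array on its 75th percentile took both PDS5 genes off the called list (adjusted p = 0.115 and 0.197), as did quantile normalization (0.6 and 0.443). That centring moved the median of all genes to -0.12 and the share of higher genes among all called to 41.9%, against 54.1% without it. Without resting B replicate 2, the count of called members was 5 in place of 8.

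Ctcf had 9.43, 9.39 and 9.35 log2 in activated B and 9.31, 9.44 and 9.46 in resting B. The groups overlapped, the adjusted p was 0.941, and the 95% interval of the log2 difference ran from -0.20 to 0.18.

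Between activated and resting T, the signs were turned. Rad21, Smc1a and Smc3 were lower in activated T, and Nipbl, Mau2 and Stag2 were higher. Of the 10 members, 4 were called higher and 3 lower, against 15.9% and 17.8% of all genes (33.7% in either direction). The fit of only the 12170 genes above background called 3023 of them higher and 3505 lower. The arrays of 9 members did not overlap, against 42.3% of all genes. The median log2 difference was 0.07 over the members and 0.02 over all genes.

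Rad21 had 9.54, 9.50 and 9.49 log2 in activated T, against 10.22, 10.18 and 10.05 in resting T, a log2 difference of -0.64 ± 0.09 (adjusted p = 2.3e-05, limma). Smc1a had 9.24, 9.12 and 9.16 log2 in activated T, against 9.76, 9.80 and 9.67 in resting T, a log2 difference of -0.57 ± 0.09 (adjusted p = 0.00012, limma). Smc3 had 9.01, 9.0 and 9.03 log2 in activated T, against 9.45, 9.44 and 9.66 in resting T, a log2 difference of -0.50 ± 0.11 (adjusted p = 0.00132, limma). For each of these 3 subunits all activated T arrays were below all resting T arrays.

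Nipbl had 9.82, 9.87 and 9.78 log2 in activated T, against 9.38, 9.44 and 9.25 in resting T, a log2 difference of 0.47 ± 0.09 (adjusted p = 0.000477, limma). Mau2 had 9.15, 9.17 and 9.23 log2 in activated T, against 8.53, 8.48 and 8.42 in resting T, a log2 difference of 0.70 ± 0.09 (adjusted p = 1.0e-05, limma). The arrays of the 2 groups did not overlap for either loader gene. Of the STAG genes, Stag2 was again called, with 9.16, 8.98 and 9.03 log2 in activated T, against 8.59, 8.63 and 8.66 in resting T, a log2 difference of 0.43 ± 0.10 (adjusted p = 0.00201, limma). Stag1 had 8.68, 8.38 and 8.49 log2 in activated T, against 8.31, 8.25 and 8.24 in resting T. Its arrays did not overlap, but its log2 difference of 0.25 ± 0.10 missed the threshold (adjusted p = 0.0586, limma). It passed under 4 other settings (adjusted p = 0.00709 to 0.0341), and without activated T replicate 5 (0.0351) or resting B replicate 1 (0.0444).

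Ctcf differed between activated and resting T, with 9.66, 9.61 and 9.51 log2, against 9.31, 9.42 and 9.23. The activated T arrays were all above the resting T arrays, and the log2 difference was 0.27 ± 0.09 (adjusted p = 0.0257, limma), a fold of 1.21. The call was lost with median centring (adjusted p = 0.0655), with the arrays of these groups alone (0.0608), and without activated T replicate 4 (0.0917) or 5 (0.0716) or resting T replicate 4 (0.0612) or 6 (0.0919). The PDS5 genes were not called here, with 95% intervals of the log2 difference from -0.30 to 0.07 for Pds5a and from -0.30 to 0.09 for Pds5b.

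**Figure D2:**
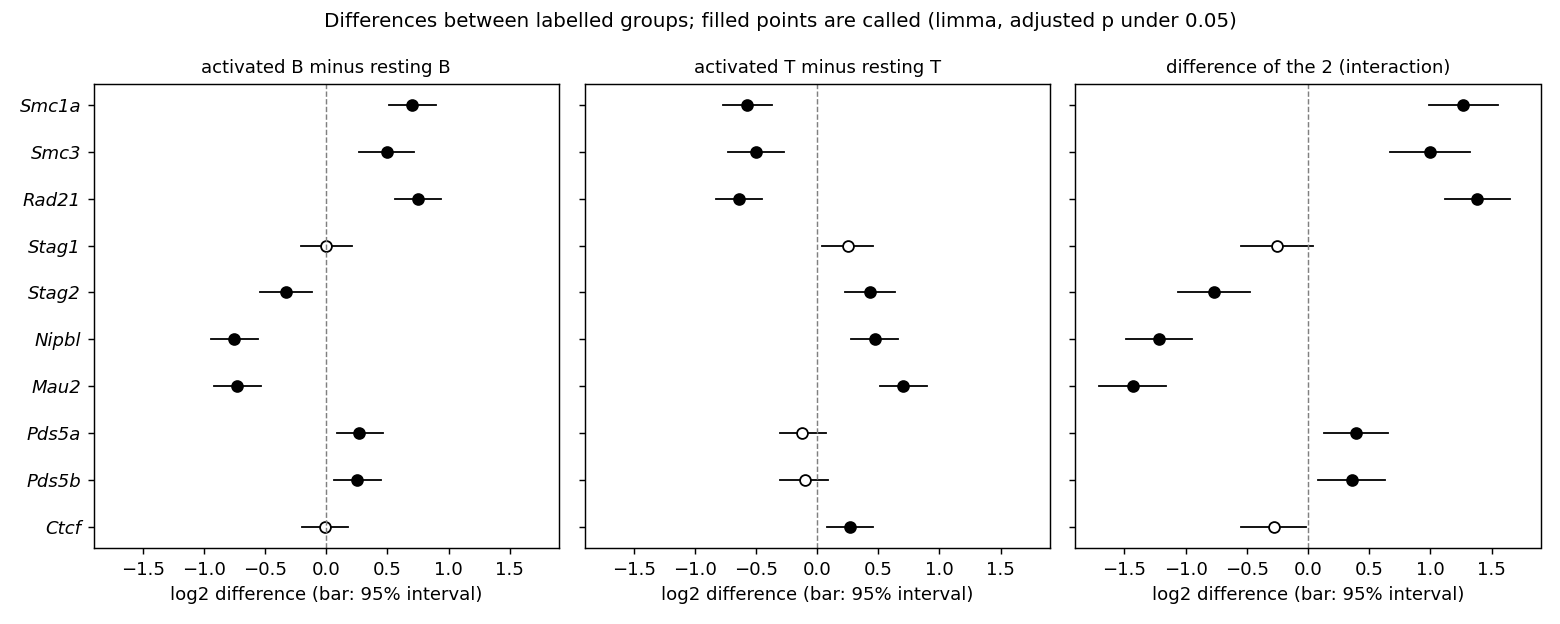
Log2 differences of the 10 genes between activated and resting B, between activated and resting T, and the difference of these differences (x axes). Bars are 95% intervals from limma and filled points are genes called at an adjusted p under 0.05. Rad21, Smc1a and Smc3 lie right of 0 in activated B and left of 0 in activated T, and Nipbl and Mau2 lie on the other side in both.

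All 10 members had opposite signs in these 2 comparisons, which share no array, and so had 69.7% of all genes. For Stag1 and Ctcf this sign rests on differences of -0.00 and -0.01 log2 in B, which turned to 0.02 and 0.01 with median centring and turned as well without any 1 of 4 (Stag1) or 3 (Ctcf) arrays. The test of the difference between them (the interaction) called 5 members with a higher and 3 with a lower value in B. The shares over all genes were 21.9% and 20.9% (42.7% in either direction). With only the 12170 genes above background, it called 4111 of them higher and 3716 lower. The values were 1.38 ± 0.13 log2 for Rad21 (adjusted p = 9.2e-08, limma), 1.27 ± 0.13 for Smc1a, 1.0 ± 0.15 for Smc3, -1.22 ± 0.13 for Nipbl and -1.43 ± 0.13 for Mau2 (adjusted p = 8.3e-08). Stag2 had -0.77 ± 0.14 (adjusted p = 0.000195). For Ctcf the value was -0.28 ± 0.13 (adjusted p = 0.0842, limma). Its activated minus resting difference in the arrays labelled T was thus not shown to differ from that in the arrays labelled B. Ctcf passed the threshold, however, under 5 other settings (adjusted p = 0.000627 to 0.048, limma). Stag1 had -0.25 (adjusted p = 0.162), and passed with the 75th percentile centring (-0.43, adjusted p = 0.0124) and with quantile normalization (-0.49, adjusted p = 0.00375). Pds5a and Pds5b had 0.39 and 0.36 (adjusted p = 0.0156 and 0.0347), and lost their calls with the 75th percentile centring (0.147 and 0.253) and with quantile normalization (0.568 and 0.439). Pds5b also lost it with the replicate block (0.0664) and without any 1 of 7 arrays, which were resting B replicates 1 and 2, activated B replicates 1 and 3, resting T replicate 5 and activated T replicates 4 and 5 (adjusted p up to 0.0841). With the 75th percentile centring the median of all genes moved to -0.21 in this comparison, and 38.1% of the genes called were higher, against 51.2% without it.

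Rad21, Smc1a, Smc3 and the loader genes were steadier in these comparisons. For Rad21, Smc1a, Smc3, Nipbl and Mau2 all 115 values from 23 other settings and left-out arrays kept their direction and call in activated against resting B, with sizes from 0.30 to 0.94 log2. The same held for all 115 in activated against resting T (0.41 to 0.78 log2) and all 115 in the interaction (0.73 to 1.67 log2). Some settings could not move a difference. As each member had 1 probe set, other choices of probe sets and filters on dim genes could change only the adjusted p. The same held for the replicate block and for the intensity trend with robust settings. In a pair of groups it also held for fitting only those groups and for leaving out an array of another group. In all of these the direction was fixed in advance, and only the call could change. In the interaction, the setting with only the groups compared was the main fit itself. These genes also had the widest spans of group means among the members.

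Comparing the labelled cell types, the resting groups differed in 6 members. Of these, 4 were called higher and 2 lower in resting B than in resting T. The shares over all genes were 16.1% and 19.0% (35.1% in either direction). With only the 12170 genes above background, 3040 of them were called higher and 3691 lower. The arrays of 7 members did not overlap, against 42.6% of all genes. The ring genes Rad21 and Smc1a were lower in resting B by 0.40 ± 0.09 and 0.39 ± 0.09 log2 (log2 differences -0.40 and -0.39, adjusted p = 0.00174 and 0.00328, limma), while Smc3 (-0.24, adjusted p = 0.0952) was not called, and passed only without resting B replicate 2 (-0.33, adjusted p = 0.0424). The loader genes were higher in resting B, Nipbl by 0.52 ± 0.09 (adjusted p = 0.000171) and Mau2 by 0.59 ± 0.09 (adjusted p = 6.1e-05). Both STAG genes were higher there, Stag2 by 0.46 ± 0.10 (adjusted p = 0.00104) and Stag1 by 0.30 ± 0.10 (adjusted p = 0.0247). The call of Stag1 was lost with median centring (adjusted p = 0.0656), and without resting B replicate 2 (0.0692) or 3 (0.115) or resting T replicate 5 (0.0598) or 6 (0.062). Ctcf (0.08, 95% interval -0.11 to 0.27) and both PDS5 genes were not called.

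The activated groups had the largest median size of difference over the members, 0.50 log2, of the 6 pairs. The median size over all genes was likewise largest for this pair, at 0.21 log2. Fewer members were called than between activated and resting B (7 against 8). Rad21 was higher in activated B than in activated T by 0.98 ± 0.09 log2 (adjusted p = 9.5e-08, limma), close to a doubling, Smc1a by 0.88 ± 0.09 (adjusted p = 6.2e-07) and Smc3 by 0.75 ± 0.11 (adjusted p = 1.9e-05). Mau2 had a log2 difference of -0.85 ± 0.09 (adjusted p = 8.2e-07) and Nipbl of -0.70 ± 0.09 (adjusted p = 4.9e-06). In all, 4 members were called higher and 3 lower, against 21.8% and 18.9% of all genes (40.7% in either direction). With only the 12170 genes above background, 4156 of them were called higher and 3357 lower. The arrays of 9 members did not overlap, against 51.1% of all genes. With the 75th percentile centring, the median of all genes was at -0.15 here and 39.2% of the called genes were higher, against 53.5% without it, and Pds5b lost its call (0.17, adjusted p = 0.128, and 0.163 with quantile normalization), while Ctcf gained one (-0.32, adjusted p = 0.00361). In the values as deposited, Ctcf had -0.20 ± 0.09 (adjusted p = 0.0833) although its groups did not overlap, and it was called under 4 further settings (adjusted p = 0.00114 to 0.0471). Stag2 (-0.30, adjusted p = 0.0201) lost its call without activated B replicate 1 (0.0684) or 3 (0.051) or activated T replicate 4 (0.0856). Pds5b (0.29, adjusted p = 0.0169) lost its call without activated B replicate 1 (0.0581) or activated T replicate 4 (0.0552) or 5 (0.0703), and Pds5a (0.22, adjusted p = 0.0559) gained one under 3 other settings (adjusted p = 0.0189 to 0.0374) and without resting B replicate 1 (0.0499) or 3 (0.0473).

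The remaining pairs cross the labels of cell type and state, and differed least. Between activated T and resting B no member was called (0 of 10), against 18.5% of all genes (8.82% higher and 9.68% lower, limma), and 3 did not overlap, against 31.3%. At an unadjusted p under 0.05 there were 3 members, with log2 differences of -0.26 for Smc3, -0.24 for Rad21 and 0.19 for Ctcf. With only the 12170 genes above background, 1761 of them were called higher and 1969 lower, among them 1 member, Rad21. Without resting B replicate 1 Smc3 was called lower (-0.39, adjusted p = 0.00973), and without replicate 2 Rad21 was (-0.30, adjusted p = 0.0489). Between activated B and resting T, 3 members were called higher and 0 lower, against 13.0% and 9.93% of all genes (23.0% in either direction). These were Rad21 (0.35 ± 0.09, adjusted p = 0.00823), Smc1a (0.32 ± 0.09, adjusted p = 0.0201) and Stag1 (0.29 ± 0.10, adjusted p = 0.0379). Smc1a lost its call without activated B replicate 2 or 3 or resting T replicate 6 (adjusted p up to 0.0704), and Stag1 without any 1 of the 6 arrays compared (up to 0.109). Without overlap between the groups were 8 members, against 35.2% of all genes. With only the 12170 genes above background, 2654 of them were called higher and 1979 lower. Smc3 (0.25, adjusted p = 0.118) was called with array weights (0.0473) and without resting B replicate 1 (0.0461). Nipbl (-0.24, adjusted p = 0.0702) was called lower under 5 other settings (adjusted p = 0.0141 to 0.0461) and without resting T replicate 6 (0.0383).

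Set in order, the levels of Rad21 and Smc1a ran from activated B through resting T and resting B to activated T, where all neighbours differed except the last pair (adjusted p = 0.0842 and 0.239, limma). Smc3 had the same order, but none of its steps was called after adjustment over all genes (adjusted p = 0.0952 to 0.126, limma). Before adjustment, p was 0.0337 for activated B against resting T, 0.0371 for resting B against resting T and 0.03 for activated T against resting B. Nipbl and Mau2 fell into a high pair (resting B and activated T) and a low pair (resting T and activated B), and the step between the pairs was called for both genes (adjusted p = 0.000477 and 6.1e-05). Stag2 had the same pairs, with a called step of 0.30 log2 (adjusted p = 0.0201). The order of Ctcf, Stag1, Pds5a and Pds5b held no step between neighbours that passed the test.

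**Figure D3:**
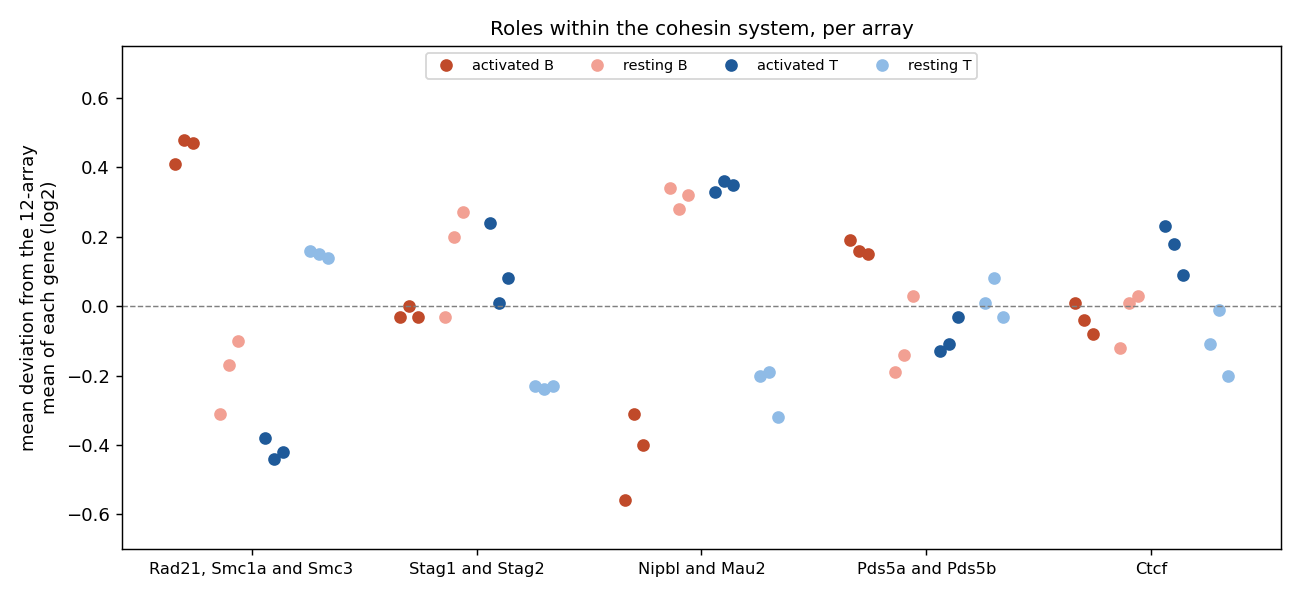
Mean deviation from the 12-array mean of each gene (log2, y axis) for the genes of each role (x axis), with 1 point per array, coloured by labelled group. Activated B arrays lie between 0.41 and 0.48 for Rad21, Smc1a and Smc3 and between -0.56 and -0.31 for Nipbl and Mau2, and activated T arrays between -0.44 and -0.38 and between 0.33 and 0.36.

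Averaged by role in each array, Rad21, Smc1a and Smc3 lay on the other side of 0 from the loader genes in all arrays; these 3 ring genes were grouped with their directions known. After each gene was centred on its own mean over the arrays, Rad21, Smc1a and Smc3 lay between 0.41 and 0.48 log2 in activated B, against -0.31 to -0.10 in resting B, and between -0.44 and -0.38 in activated T, against 0.14 to 0.16 in resting T. Nipbl and Mau2 lay between -0.56 and -0.31 in activated B, against 0.28 to 0.34 in resting B, and between 0.33 and 0.36 in activated T, against -0.32 to -0.19 in resting T. The other ring genes, Stag1 and Stag2, did not follow the 3: their mean lay between -0.03 and -0.00 in activated B, against -0.03 to 0.27 in resting B, and between 0.01 and 0.24 in activated T, against -0.24 to -0.23 in resting T. Mki67 was high in the arrays where the ring genes were high, and whether proportions of dividing cells have a part in this was not tested.

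The arrays of resting B were less alike than those of other groups for these genes. The median SD of the members was 0.117 log2 in resting B, against 0.0455 in activated B, 0.0555 in activated T and 0.0668 in resting T, and 6 of the 10 members had their highest SD in resting B. Over 12170 genes above the background the median SD was 0.116 in resting B, 0.091 in activated B, 0.104 in activated T and 0.126 in resting T. Smc1a, Smc3, Stag1, Stag2, Pds5a, Pds5b and Ctcf had their lowest resting B value in replicate 1, and Rad21, Nipbl and Mau2 in replicate 2. Smc1a and Stag2 lie on the X chromosome, and Xist, the RNA of the inactive X, was at 10.62 log2 or above in replicate 3 of both B groups and replicates 5 and 6 of both T groups, and at 4.50 or below in all others. In activated T, Smc1a was at 9.24 log2 in the array with low Xist and at 9.12 and 9.16 in those with high Xist. In activated B it was at 10 and 10.09 with low and 10.09 with high Xist. Resting B had 9.19 and 9.40 with low and 9.48 with high Xist, and resting T had 9.76 with low and 9.80 and 9.67 with high. For Stag2 the high-Xist array was the highest of resting B (9.21, against 8.89 and 9.17). In activated T, Stag2 was at 9.16 with low and at 8.98 and 9.03 with high Xist. Taken over the groups, these arrays show no shared direction.

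Genes whose levels ran most like those of a member over the 12 arrays were found by the root mean square difference of values centred on each gene's own mean, among 12170 genes above the background. For Rad21 these were Srebf1, a transcription factor of lipid synthesis (0.062 log2), Zfp54 (0.074) and Ndufa11, a subunit of respiratory complex I (0.077), with Smc1a at rank 18 (0.102) and Smc3 at rank 551 (0.189). For Smc1a these were Sem1, a small proteasome subunit (0.065), Pafah1b2 (0.07) and Nucb1 (0.072), with Rad21 at rank 50 and Smc3 at rank 136. For Mau2 these were Pias1, a SUMO ligase (0.068), Dock8, a guanine nucleotide exchange factor of lymphocytes (0.082) and Nrbp1 (0.083), and its partner Nipbl was at rank 16 with 0.100.

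The regulators of cohesin through the cell cycle had larger median differences than the 10 members. Of 12 genes, 8 were higher and 2 lower in activated than in resting B, with a median log2 difference of 3.07, and 2 were higher and 9 lower in activated than in resting T (median -2.53). With genes that were not above background in one group set to their bounds, the medians were 2.83 and -2.32. The counts were the same under 3 other scalings. Among all genes, 19.7% were called higher and 16.7% lower in B, and 15.9% and 17.8% in T. Plk1, a kinase that removes cohesin from chromosome arms in mitosis, was at 9.38, 9.18 and 9.33 log2 in activated B, against 5.66, 6.04 and 5.68 in resting B (log2 difference 3.50, adjusted p = 2.6e-12, limma). Cdca5, which encodes sororin, the protector of cohesion against WAPL, was at 9.22, 9.14 and 9.13 log2 in activated B, against 5.47, 5.28 and 5.47 in resting B (3.76, adjusted p = 6.6e-13). Aurkb, a kinase of the chromosomal passenger complex, differed by 3.55. Between activated and resting T the log2 differences of Plk1, Cdca5 and Aurkb were -3.54, -3.22 and -2.91.

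The 2 acetyltransferases that act on SMC3 went opposite ways. Esco2, which acts in S phase, was at 8.15, 7.97 and 8.05 log2 in activated B, against 4.82, 4.56 and 4.51 in resting B, which lie under the background of 5.21, so that it was at least 7.21-fold higher (adjusted p = 3.4e-12, limma). Esco1, which acts through interphase, was at 7.78, 7.73 and 7.50 log2 in activated B, against 8.31, 8.43 and 8.46 in resting B (log2 difference -0.73, adjusted p = 1.5e-05, limma). In activated against resting T, Esco1 had 0.62 (adjusted p = 9.8e-05) and Esco2, again not above background in activated T, was at least 5.39-fold lower (adjusted p = 2.0e-11). Such bounds set the mean of the brighter group against the background level. Hdac8, the deacetylase of SMC3, ran with Esco1 (-0.46 in B and 0.39 in T, adjusted p = 0.00156 and 0.00579). Wapl, which opens the ring and releases cohesin, was not called between activated and resting B (0.19 ± 0.08, adjusted p = 0.0922), and was lower in activated than in resting T, with 8.66, 8.67 and 8.72 log2 against 9.20, 9.23 and 9.29 (-0.56, adjusted p = 4.0e-05). Pttg1, the securin that holds separase in check, was called in neither comparison, while the separase gene Espl1 had log2 differences of 2.82 in B and -2.39 in T.

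**Figure D4:**
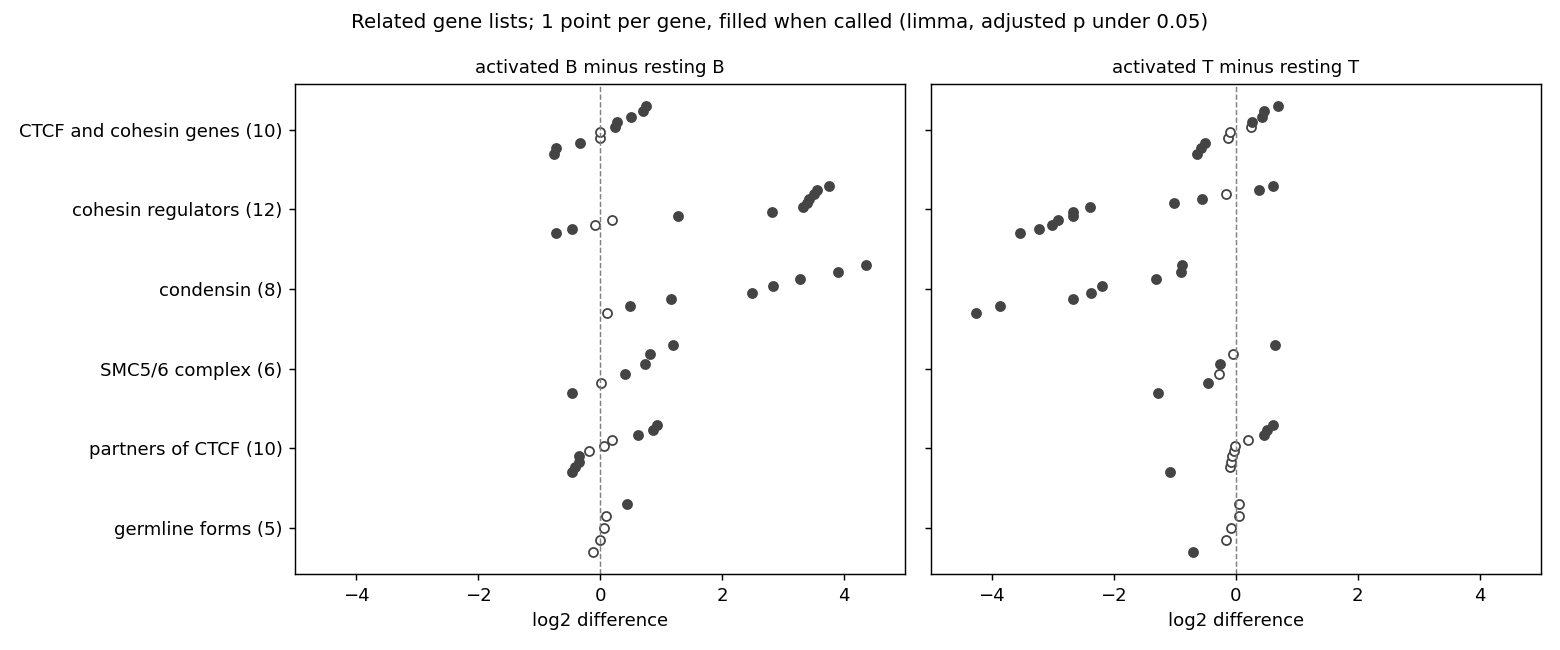
Log2 differences between activated and resting B (left) and between activated and resting T (right), with 1 point per gene, for the 10 CTCF and cohesin genes and 5 related lists (y axis, measured genes in brackets). Filled points are called by limma at an adjusted p under 0.05. The 10 members lie between -0.75 and 0.75 in B, while cohesin regulators reach 3.76 and condensin subunits 4.36.

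The related SMC complexes were set beside cohesin. Activated against resting, 19.7% of all genes were called higher and 16.7% lower in B, and 15.9% and 17.8% in T. Of the 8 subunits of condensin, the complex that compacts chromosomes in mitosis, 7 were higher in activated than in resting B, with a median log2 difference of 2.66, and all 8 were lower in activated than in resting T (median -2.28). The largest of these differences in B was that of Ncapg, with 9.69, 9.66 and 9.58 log2 in activated B, against 4.97, 5.26 and 5.61 in resting B, followed by Ncapg2 and Ncaph (log2 differences 3.90 and 3.27). In 1 resting B array for Ncapg and in 2 for Ncapg2 the level was under the background. In the SMC5/6 complex, which acts in DNA repair, 4 of 6 genes were higher and 1 lower in activated B, and 1 was higher and 3 lower in activated T. Under quantile normalization the first count of higher genes was 3, and under this and the 75th percentile centring the count lower in activated T was 2. As in the cohesin ring, genes of this complex did not all run one way, since Smc5 was higher in activated than in resting B (0.82, adjusted p = 1.3e-06) and its partner Smc6 was lower (-0.46, adjusted p = 0.000886). Nsmce1 had 1.19 and Nsmce2 had 0.73 in this comparison (adjusted p = 1.4e-07 and 0.000212).

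Of 10 measured genes that encode partners of CTCF or other proteins of chromatin loops, 3 were higher and 4 lower in activated than in resting B, and 3 were higher and 1 lower in activated than in resting T (5 lower in B with the 75th percentile centring or quantile normalization, and 4 higher in T with the second). Satb1, a chromatin organiser of T cells, had the widest span, with 12.06, 12.17 and 12.13 log2 in activated B, 11.49, 11.42 and 11.60 in resting B, 10.27, 10.46 and 10.63 in activated T and 10.30, 10.30 and 10.16 in resting T. Both B groups were above both T groups, as for the 7 T cell markers. Parp1, which modifies CTCF with ADP-ribose, was higher in activated than in resting B by 0.87 (adjusted p = 2.5e-06, limma), and Npm1, a nucleolar partner, by 0.93 (adjusted p = 3.9e-05). Ldb1, which joins enhancers and promoters, had -0.46 in B and 0.62 in T (adjusted p = 0.000393 and 2.3e-05), the signs of the loader genes, as had Chd8 (-0.34 and 0.52) and Top2b (-0.34 and 0.46). Yy1 and Maz were called in neither comparison. Beside the counts of this list, 19.7% of all genes were called higher and 16.7% lower in B. In T the shares of all genes were 15.9% and 17.8% (33.7% in either direction).

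The germline forms of CTCF and cohesin were at or near the background. Rec8, Smc1b and Rad21l, the meiotic kleisins and SMC subunit, had no array above 5.03 log2, and Ctcfl, the testis form of CTCF, lay between 5.05 and 5.40. Stag3, the meiotic STAG protein, was at 4.72, 4.96 and 4.98 log2 in activated T, against 5.71, 5.79 and 5.26 in resting T. Only the resting T values lie above the background of 5.21. The fitted log2 difference of -0.70 (adjusted p = 0.00132, limma) thus rests in part on values under it. Stag3 was at 5.04, 5.36 and 4.97 log2 in activated B and 4.95, 4.53 and 4.58 in resting B, mostly under the background too. This log2 difference was 0.44 (adjusted p = 0.0298, limma), a call that was lost with the 75th percentile centring.

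Genes of DNA replication and mitosis were set beside these lists. All 11 were higher in activated than in resting B (median log2 difference 2.36) and all 11 were lower in activated than in resting T (median -2.65), among them Bub1, a kinase of the spindle checkpoint, which was not above background in resting B or activated T and so was at least 18.3-fold higher in activated than in resting B and at least 16.1-fold lower in activated than in resting T. Top2a, the mitotic topoisomerase, had 4.22 and -4.23. Of 7 common reference genes, 2 were higher in B, and in T 1 was higher and 3 were lower. Beside both lists, the shares of all genes called in either direction were 36.5% in B and 33.7% in T. Hprt, an enzyme of purine salvage, was at 10.28, 10.26 and 10.28 log2 in activated B, against 8.89, 9.20 and 9.15 in resting B (log2 difference 1.20), and had -1.25 in T, a wider difference than any of the 10 members. Actb, the cytoplasmic actin, had 0.06 in B and -0.06 in T.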

How the data were processed

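RNA of 12 mouse spleen samples was hybridised to Affymetrix gene arrays. The deposited log2 values were made by the authors with RMA, whose version is not given in the sources used here; they are not counts, and the precision is limited by the number of arrays. Of 34760 probe sets, 21640 had 1 gene symbol in the platform annotation, 1321 had several and 11799 had none named. Where a gene had several probe sets, the one with the highest mean over the arrays was used, which left 19937 genes. Array medians lay between 5.50 and 5.68 log2.

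Groups were taken from the labels. A mean per group was fitted to all 12 arrays with limma 3.58.1 (R 4.3.3), with moderated tests, two-sided, for the 6 pairs of groups and the interaction, and Benjamini-Hochberg adjustment over all genes. The script was tested on simulated data. Python 3.11.15 was used for tables (pandas 2.3.3 with numpy 2.4.6) and for plots (matplotlib 3.10.9). Alternatives were other centring and normalization, filters on dim genes, other choices of probe sets, other variance models, only the groups compared, each array left out in turn, and a block for the replicate number. All 10 members are named. For the related lists, counts over the measured genes are given with at least the 3 genes of the widest span of group means, and likeness was computed for the 3 members of the widest span. The members and lists were chosen with earlier results of these data known.

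Replicate numbers are shared by the activated and resting arrays of a cell type. Over 12170 genes, arrays of the same number deviated from the means of their groups with a correlation of 0.22, 0.16 and 0.23 in T, and of -0.06, 0.06 and 0.25 in B. Leaving out 4 sex-linked genes gave 0.02, 0.09 and 0.19 in T and -0.12, -0.02 and -0.00 in B. The fit as reported treated all arrays as unpaired, and the alternative with a block used the numbers in both T and B.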

Additional observations from a re-analysis of the deposited data

Results flagged for a closer look

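For 8 of the 10 genes the activated minus resting log2 difference was not the same in the arrays labelled B and those labelled T, by limma's test of the difference itself with adjustment over all genes. The difference of differences was 1.38 ± 0.13 for Rad21 (adjusted p = 9.2e-08), 1.27 ± 0.13 for Smc1a (adjusted p = 4.5e-07) and 1.0 ± 0.15 for Smc3 (adjusted p = 3.5e-05), the subunits that form the ring. For the loader it was -1.43 ± 0.13 for Mau2 (adjusted p = 8.3e-08) and -1.22 ± 0.13 for Nipbl (adjusted p = 4.1e-07). Stag2 had -0.77 ± 0.14 (adjusted p = 0.000195), Pds5a 0.39 ± 0.12 (adjusted p = 0.0156) and Pds5b 0.36 ± 0.13 (adjusted p = 0.0347). Of all genes, 42.7% passed the same test. With only the 12170 genes above background, 4111 of them were called higher and 3716 lower. Lineage markers went against the labels in all 4 groups, and Mki67 against the labels of state in the T groups. The part of this in the values was not tested. Groups of 3 arrays are too small for the test of single outlying samples.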

How the results depend on the processing

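Rad21, Smc1a, Smc3, Nipbl and Mau2 kept their direction and call in activated against resting B, in activated against resting T, in activated B against activated T and in the interaction, in 115 of 115 values each. Fewer values stayed the same in resting B against resting T (114 of 115), activated B against resting T (104 of 115) and activated T against resting B (108 of 115). Settings that could not move a difference, named above, are counted in these and in the following values. Over all 10 genes and 7 comparisons, 713 values under other settings stayed on their side of the threshold with the same sign, 30 gained a call, 20 lost one and 7 turned sign; with 1 array left out these were 777, 9, 40 and 14.

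The values that turned sign were all small and uncalled. With median centring, activated against resting B was 0.02 for Stag1 and 0.01 for Ctcf. With the 75th percentile centring, Stag1 had -0.08 in activated B against activated T. With quantile normalization this was -0.09, Pds5b had 0.03 in resting B against resting T, Ctcf had -0.02 in activated B against resting T and Pds5a had -0.01 in activated T against resting B. With 1 array left out, activated against resting B ran from -0.07 to 0.06 for Stag1 and from -0.06 to 0.02 for Ctcf, activated B against activated T from -0.02 to 0.12 for Stag1, and activated T against resting B from -0.13 to 0.02 for Stag1, from -0.13 to 0.03 for Stag2 and from -0.09 to 0.03 for Pds5b.

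The count of called members in activated B against resting T was 5 with array weights (3 without). In activated T against resting B it was 2 with quantile normalization and 1 each with genes above the 95th background percentile, with an intensity trend and robust settings, and with array weights (0 in the fit as reported). With 1 array left out the counts ran from 5 to 8 in activated against resting B, where 5 was found without resting B replicate 2, from 1 to 4 in activated B against resting T, where 1 was found without activated B replicate 2 or 3, and from 0 to 1 in activated T against resting B, where 1 was found without resting B replicate 1 or 2. With every probe set tested on its own, which tests more features, 10211 were called in activated against resting T, 13027 in activated B against activated T and 13700 in the interaction, against 6722, 8120 and 8518 genes. The cause of the other changes was not tested.

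With the replicate number as a block, the pairing changed only the calls of Pds5b, in activated against resting B (0.25, adjusted p = 0.0762) and in the interaction (0.36, adjusted p = 0.0664). The fixed block left 4 residual degrees of freedom, and the random block had a consensus correlation of 0.003.

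With 3 arrays a group, small differences such as those of Stag1, Ctcf and the PDS5 genes lie near the limit of the test.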
